A study of Mus musculus with 8 samples.

Results

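Elastic fibres and the enzymes that crosslink them were examined through 10 genes, 5 encoding elastic fibre proteins (Eln, Fbn1, Emilin1, Fbln2 and Fbln5) and 5 encoding the lysyl oxidases (Lox, Loxl1, Loxl2, Loxl3 and Loxl4). They were found by symbol among the 22664 gene symbols that the 22206 probe sets of the array name, and each of the 10 was measured by 1 probe set. The muscles came from male C57/Bl6j mice aged 22 weeks. The gastrocnemius (GAS), a calf muscle, had been injected when the mice were about 10 weeks old, with an AAV (adeno-associated virus) coding for a short hairpin RNA. The MYTHO-KD group (4 arrays) received AAV sh-RNA MYTHO, which targets D230025D16Rik, the gene named Mytho, a regulator of autophagy. The scramble group (4 arrays) received the control virus AAV sh-RNA scrmb in the contralateral leg, so every muscle in the comparison had been injected with a virus. The hairpins were driven by a U6 promoter, which does not restrict expression to one cell type, and the RNA was that of whole muscle.

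An elastic fibre is built on a scaffold of microfibrils, polymers of fibrillin. Fibulins and emilins bring tropoelastin, the soluble product of Eln, to this scaffold, and lysyl oxidases, copper enzymes secreted by the cell, oxidise lysines so that elastin and collagen chains become covalently joined. In skeletal muscle these proteins lie in the connective tissue sheaths and in vessel walls, and fibroblasts and smooth muscle cells are their main known sources.

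The comparison asked how transcription in the muscle differed 12 weeks after injection (3 months in the study's terms). For each probe set the values analysed were each group's log2 average and SD, as the authors computed them, so no value of a single array could be shown. The labels number the arrays of each group without tying them to animals, and the p-values measure only the spread between these arrays. The test was unpaired, so its p-values and intervals take no account of legs that came from the same mouse. As a check of the labels, D230025D16Rik averaged 7.71 ± 0.66 (SD) in MYTHO-KD and 10.02 ± 0.37 in scramble, a log2 difference of -2.31 (adjusted p = 0.0138). Averages in the table ran from 3.18 to 19.93, the median SD was 0.27 in each group, and the median log2 difference of all probe sets was -0.01. Of the muscle fibre genes that mark the labelled tissue, Acta1, Myh4 and Atp2a1 stood at the top of the scale (19.93) in both groups. A signal depends on the probe as well as on the transcript, so levels are compared between groups within a gene and never between genes.

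Of the 10 genes, which were chosen with earlier results of these data known, 9 had a higher average in MYTHO-KD and 1, Fbln2, had a lower one. A gene was called when its fold was at least 2 and its p in limma's moderated test, unadjusted, was under 0.05. By this rule 3 of the 10 were called higher (Loxl1, Loxl2 and Fbn1), where 0.86% of all probe sets were called higher, and 0 of the 10 were called lower, where 0.257% of all probe sets were. The same 3 genes were those with an unadjusted p under 0.05 at any size of difference, against 6.48% of all probe sets in the higher direction and 5.52% in the lower. With the p-values of limma's test adjusted by Benjamini-Hochberg for the whole table, 0 of the 10 were under 0.05, as 0.275% of all probe sets were. The median log2 difference of the 10 genes was 0.43. It was 0.28 over the 5 elastic fibre proteins, with 4 of 5 higher, and 0.59 over the 5 lysyl oxidases, with 5 of 5 higher.

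**Figure D1:**
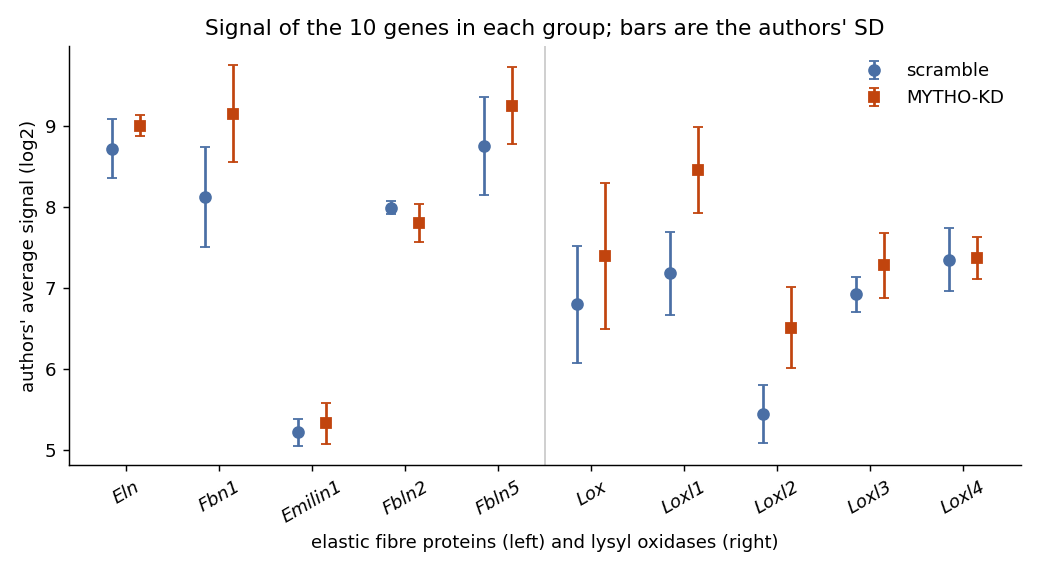
The vertical axis gives the authors' average signal (log2) of each gene in the scramble (blue circles) and MYTHO-KD (red squares) groups of 4 arrays each, and bars are the authors' SD. The bars of the groups do not overlap for Loxl1 and Loxl2, and overlap for the other 8 genes.

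The lysyl oxidases included the largest difference of the set. Loxl1, a lysyl oxidase known for its part in the upkeep of elastic fibres, averaged 8.45 ± 0.53 in MYTHO-KD and 7.18 ± 0.51 in scramble (SD). The log2 difference was 1.27 (SE 0.297, 95% interval 0.62 to 1.92), or 2.41-fold higher, with an adjusted p of 0.109. The difference lay at the 99.6th percentile of all differences. The probe set covers chr9:58287723-58313212 on the minus strand in mm10, the full extent of the RefSeq gene.

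Loxl2, which encodes an oxidase with scavenger receptor domains that acts on basement membrane collagen as well as elastin, averaged 6.51 ± 0.50 in MYTHO-KD and 5.45 ± 0.36 in scramble. The log2 difference was 1.06 (SE 0.261, 95% interval 0.49 to 1.63), or 2.08-fold higher, with an adjusted p of 0.129. The scramble average lay under 5.715, the limit used below for dim probe sets, though the mean of both averages did not. The probe set is annotated to both Loxl2 and Mir6950, and spans chr14:69390793-69695834 on the plus strand. It begins 217899 bases before the RefSeq Loxl2 gene (chr14:69608692-69695834) and overlaps nearly all of Gm21451 (chr14:69390417-69477453), which RefSeq lists as protein coding and the array's annotation as a pseudogene similar to Loxl2. The positions of single probes were not examined. If some of them read this copy, its signal cannot be told apart from that of Loxl2, and the value may be that of both. The other probe sets that overlap the interval were not called. On the plus strand, Entpd4 had a log2 difference of -0.01. On the minus strand, the difference was -0.27 for the probe set of Gm16867 and Gm21464, and -0.40 for Synb.

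For Loxl1 and Loxl2 the bands of 1 SD around the averages did not overlap, with 7.92 as the lower edge of MYTHO-KD against 7.69 as the upper edge of scramble for Loxl1, and 6.01 against 5.81 for Loxl2. Such bands stood apart in the higher direction for 2 of the 10 genes and for 4.03% of all probe sets.

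The founding enzyme of the family, Lox, which crosslinks fibrillar collagen and elastin, averaged 7.39 ± 0.90 in MYTHO-KD and 6.80 ± 0.72 in scramble. Its log2 difference of 0.59 had a 95% interval from -0.36 to 1.54 (adjusted p = 0.653). The SDs of Lox lay at the 99.2th percentile of all probe sets in MYTHO-KD and at the 98.8th in scramble. With that spread a log2 difference of 0.95 was the smallest that could have reached a p of 0.05. The interval holds both no difference and a 2-fold one, so Lox cannot be said to differ from scramble or to be like it. Its probe set matches the RefSeq gene at chr18:52516060-52529867 on the minus strand.

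Loxl3, a member with scavenger receptor domains like Loxl2, averaged 7.28 ± 0.40 in MYTHO-KD and 6.92 ± 0.21 in scramble, a log2 difference of 0.36 (95% interval -0.11 to 0.83, adjusted p = 0.555). It lies at chr6:83034173-83052564 on the plus strand, where its end overlaps Htra2 on the opposite strand. The Htra2 probe set differed by 0.47 on the log2 scale (adjusted p = 0.371).

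Loxl4, which shares those domains, averaged 7.37 ± 0.26 in MYTHO-KD and 7.35 ± 0.39 in scramble. Of the 10 genes it had the difference nearest to 0, at 0.02 on the log2 scale (95% interval -0.46 to 0.50, adjusted p = 0.987). The interval excludes a difference of 2-fold in either direction. Its probe set lies at chr19:42592279-42612813 on the minus strand.

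**Figure D2:**
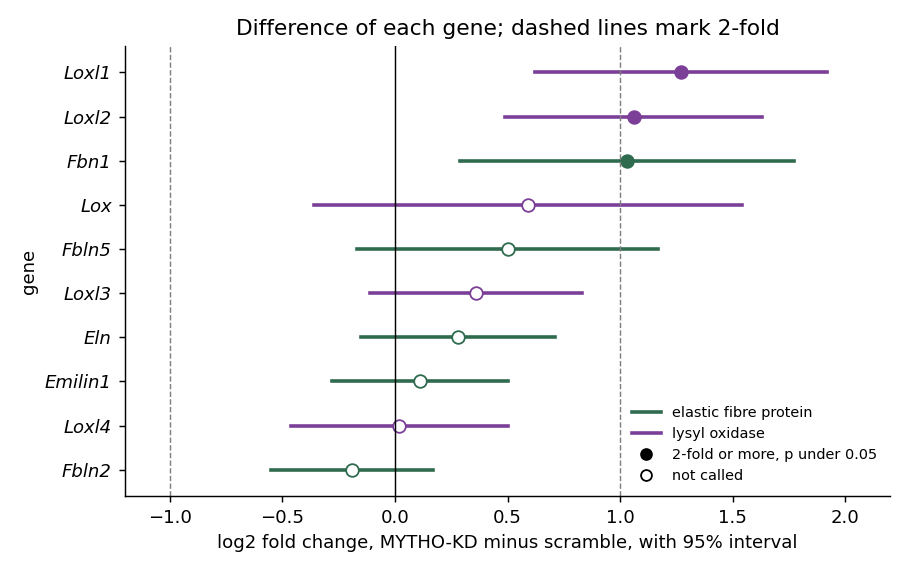
The horizontal axis gives the log2 fold change of MYTHO-KD over scramble for each gene as a point with its 95% interval, in order of size, with lysyl oxidases in purple and elastic fibre proteins in green. The intervals of Loxl1 (0.62 to 1.92), Loxl2 (0.49 to 1.63) and Fbn1 (0.29 to 1.77) lie above 0, and those of the other 7 genes cross it.

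Among the elastic fibre proteins, Fbn1, which encodes fibrillin-1, the main protein of the microfibril scaffold in adult tissue, was the one called. It averaged 9.15 ± 0.60 in MYTHO-KD and 8.12 ± 0.62 in scramble. The log2 difference was 1.03 (SE 0.338, 95% interval 0.29 to 1.77), or 2.04-fold higher, just past the 2-fold limit, with an adjusted p of 0.246. The bands of 1 SD overlapped (lower edge 8.55 in MYTHO-KD, upper edge 8.74 in scramble), and without pooling the variance over probe sets the p was 0.0542, so this call does not stand with the spread of the gene's own 8 arrays alone. The probe set lies at chr2:125300594-125507993 on the minus strand, and its interval ends 1508 bases past the RefSeq gene. It overlaps Gm9913 on the opposite strand, which averaged 3.79 and 3.76 and was flagged as not expressed in either group.

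Eln, which encodes tropoelastin, the elastic core itself, averaged 9.00 ± 0.13 in MYTHO-KD and 8.72 ± 0.36 in scramble. The log2 difference of 0.28 (95% interval -0.15 to 0.71) gave an adjusted p of 0.63. The interval excludes a difference of 2-fold and includes 0. The gene is on the minus strand at chr5:134702596-134747323.

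Fbln5, the fibulin that binds tropoelastin and lysyl oxidases and is needed for fibre assembly, averaged 9.25 ± 0.47 in MYTHO-KD and 8.75 ± 0.60 in scramble. Its log2 difference of 0.50 (95% interval -0.17 to 1.17, adjusted p = 0.567) was below the 0.67 that could have reached a p of 0.05 at its spread. The gene lies at chr12:101746565-101819119 on the minus strand.

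Fbln2, a fibulin of elastic fibres and basement membranes that binds fibrillin-1 and tropoelastin, was the member with a lower average. It stood at 7.80 ± 0.23 in MYTHO-KD and 7.99 ± 0.08 in scramble, a log2 difference of -0.19 (95% interval -0.55 to 0.17, adjusted p = 0.721). It maps to chr6:91212455-91272540 on the plus strand.

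Emilin1, a glycoprotein at the interface of elastin and microfibrils, averaged 5.33 ± 0.25 in MYTHO-KD and 5.22 ± 0.17 in scramble. The log2 difference was 0.11 (95% interval -0.28 to 0.50, adjusted p = 0.87). The probe set lies at chr5:30913402-30921278 on the plus strand and was flagged as expressed in both groups, like those of the other 9 genes.

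The differences between 2 members could not be tested, because the covariance of their signals over the arrays is not known from averages. The order of the differences from Loxl1 to Fbln2 is therefore a description. The intervals of Loxl1 and Loxl2 overlapped those of Lox, Loxl3 and Fbln5. Loxl1 (lower bound 0.62) lay wholly above the intervals of Loxl4, Emilin1 and Fbln2 (upper bounds 0.50, 0.50 and 0.17).

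**Figure D3:**
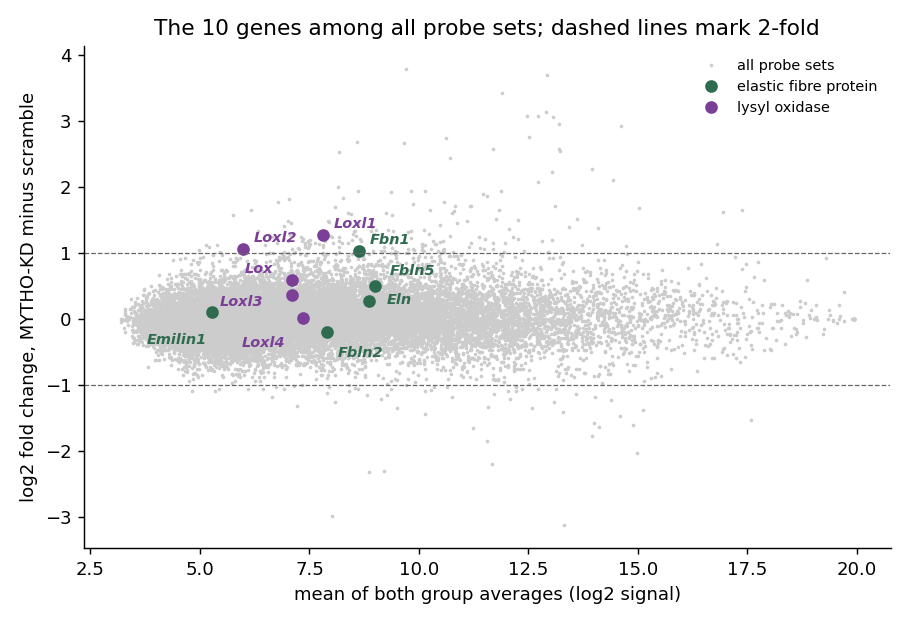
Each grey point is a probe set, with the mean of both group averages (log2 signal) on the horizontal axis and the log2 fold change of MYTHO-KD over scramble on the vertical axis, and the 10 genes are drawn as larger points. Loxl1, Loxl2 and Fbn1 lie above the upper dashed 2-fold line, at 1.27, 1.06 and 1.03. The other 7 genes lie between the dashed lines, with Lox the highest of them at 0.59 (96.2th percentile of all differences).

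Windows of 250 bases before an annotated start were given for 5 of the 10 genes (Fbn1, Emilin1, Fbln2, Fbln5 and Loxl4) in RefSeq's table for GRCm38.p6. Those of Emilin1, Fbln2 and the inner start of Fbln5 lay wholly inside the RefSeq gene. Shown here are Fbn1, the called gene among them, and Loxl4, the gene with the difference nearest to 0. Bases inside the RefSeq gene were left out, which leaves 203 bases for Fbn1. Motif counts and GC content are those of the full windows. Both are written 5′ to 3′ on the minus strand of the gene, with capitals for matches to the motifs searched.
Fbn1, chr2:125506486-125506688: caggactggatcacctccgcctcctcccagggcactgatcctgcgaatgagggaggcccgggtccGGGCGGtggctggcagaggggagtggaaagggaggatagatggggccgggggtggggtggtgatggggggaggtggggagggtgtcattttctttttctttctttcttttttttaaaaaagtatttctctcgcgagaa
Loxl4, chr19:42612807-42613056: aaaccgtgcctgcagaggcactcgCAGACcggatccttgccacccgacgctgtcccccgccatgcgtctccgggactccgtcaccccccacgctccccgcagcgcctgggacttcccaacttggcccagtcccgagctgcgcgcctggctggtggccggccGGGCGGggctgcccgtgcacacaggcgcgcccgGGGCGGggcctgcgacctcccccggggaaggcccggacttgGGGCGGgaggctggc

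The motifs searched on both strands were the TATA box (TATAAA), the GC box (GGGCGG), the CCAAT box (CCAAT), the SMAD element (CAGAC), the AP-1 element (TGANTCA) and the TEAD element (GGAATG), and no motif's letters contain another's. The window of Fbn1 held 1 GC box and that of Loxl4 held 3 GC boxes and 1 SMAD element. Over all 32851 windows of this length, 32.7% held a GC box, 42.2% a SMAD element, 33.8% a CCAAT box, 12.4% a TATA box, 12.6% a TEAD element and 6.75% an AP-1 element. The GC content was 76.0% for Loxl4 and 59.2% for Fbn1, against a median of 52.4%. Of the windows not shown, that of Fbln2 held 1 GC box, that of Emilin1 held 2 SMAD elements, and Fbln5 had 2 GC boxes and 1 CCAAT box before its outer start and 2 SMAD elements before its inner one. A TATA box, an AP-1 element or a TEAD element was found in 0 of these 6 windows. A match is a description of letters and not of a bound site.

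The genes that work with the 10 were taken as 7 lists of 63 genes, chosen by function. They were chosen with earlier results of these data known, so their counts describe the lists and are not independent support. Of the 63, 49 had a higher and 14 a lower average in MYTHO-KD, and the median log2 difference was 0.29, compared with -0.01 for all probe sets. By the 2-fold rule 7 of the 63 were called higher (0.86% of all probe sets) and 0 lower (0.257%). Of the 63, 0 passed an adjusted p of 0.05 in limma's test, and at an unadjusted p under 0.05 there were 18 higher (6.48% of all probe sets) and 1 lower (5.52%).

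The microfibril and assembly proteins, the partners of fibrillin-1, were higher for 15 of 20 genes and had a median log2 difference of 0.215. Of the 20, 18 were flagged as expressed in both groups, and the others, Emilin3 (3.74 and 3.53) and Ltbp2 (3.72 and 3.62), are counted among those higher. Mfap5, a microfibril-associated glycoprotein, was the 1 called, at 9.92 ± 0.49 in MYTHO-KD and 8.84 ± 0.32 in scramble (log2 difference 1.08, adjusted p = 0.108). The list of proteins that activate lysyl oxidases or supply their copper was higher for 5 of 7 genes, with a median of 0.20. In that list Fn1, encoding fibronectin, a scaffold on which the pro-enzyme of Lox is processed, was called at 10.79 ± 0.77 against 9.44 ± 0.53 (log2 difference 1.35, adjusted p = 0.154). Postn, encoding periostin, a matrix protein that binds Bmp1, differed by 0.83 (adjusted p = 0.169). Bmp1, the protease that cleaves the Lox pro-enzyme, differed by 0.46 (adjusted p = 0.428), and Atp7a, the copper pump that loads the enzyme, by -0.41 (adjusted p = 0.507).

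The fibrillar collagens, the other substrate of the lysyl oxidases, were higher for 7 of 8 genes with a median of 0.51, and Col3a1 was the 1 called (log2 difference 1.43, adjusted p = 0.102). Proteases that degrade elastin were higher for 8 of 9 genes with a median of 0.58, and 3 were called. Mmp12, the macrophage elastase, averaged 6.98 ± 0.77 in MYTHO-KD and 5.33 ± 0.40 in scramble (log2 difference 1.65, adjusted p = 0.0754). Mmp2, a gelatinase, differed by 1.17 and Ctss, the lysosomal protease cathepsin S, by 1.10. All 5 inhibitors of these proteases had a higher average. Timp1 met the 2-fold rule with 5.50 ± 0.86 in MYTHO-KD and 4.46 ± 0.24 in scramble (adjusted p = 0.256), but it was flagged as not expressed in scramble, so the size of its difference is not known, and with such probe sets left out 6 partner genes were called.

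The TGF-beta ligands, regulators of matrix genes that are stored on microfibrils, and their receptors together had 4 of 6 genes higher and 0 called. Tgfb3 had the highest log2 difference, 0.89 (adjusted p = 0.092), and Tgfb2 the lowest, -0.33 (adjusted p = 0.509). Integrins that bind elastic fibre proteins had 5 of 8 higher and 0 called, from Itga5 at 0.65 (adjusted p = 0.318) to Itgb6 at -0.54 (adjusted p = 0.344).

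**Figure D4:**
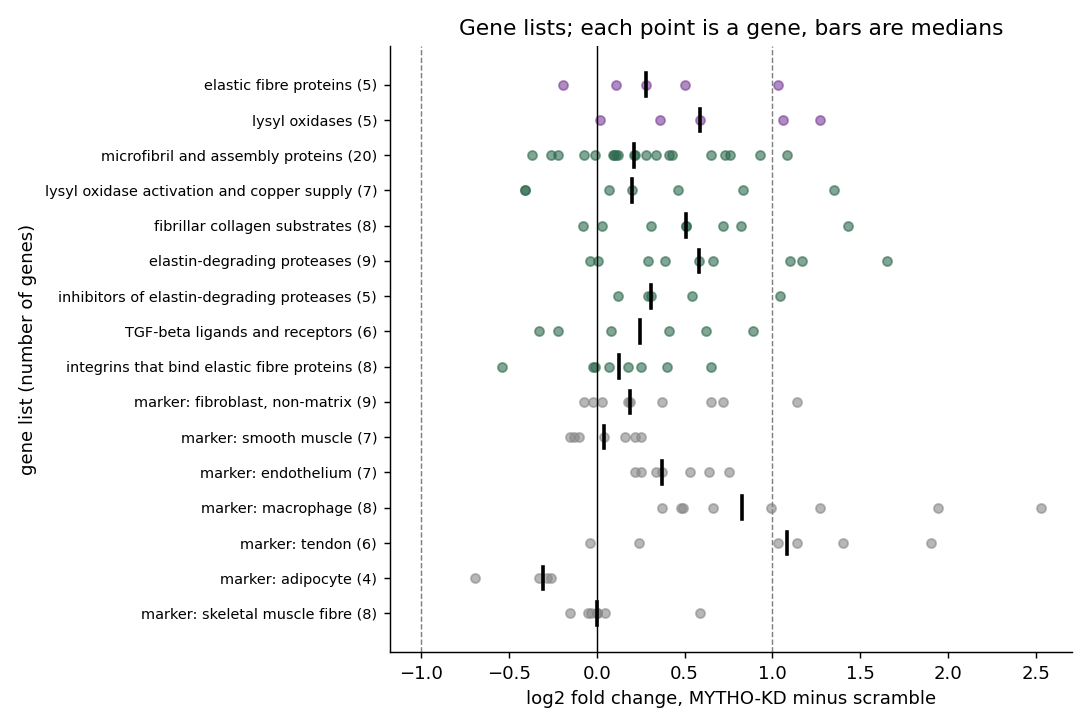
Each point is a gene, with its log2 fold change of MYTHO-KD over scramble on the horizontal axis, in rows for the 2 classes of the 10 genes (purple), the 7 lists of partner genes (green) and 7 lists of cell type markers (grey), and black bars are medians. The medians are 0.59 for the lysyl oxidases and 0.28 for the elastic fibre proteins, and those of the marker lists run from -0.305 (adipocyte) to 1.085 (tendon).

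In whole muscle, more cells of a type and more RNA per cell cannot be told apart, and the markers of the cell types that make or surround elastic fibres moved as follows. Fibroblast markers outside the matrix were higher for 7 of 9 genes, with a median log2 difference of 0.19 and a mean signal of 8.50 in MYTHO-KD and 8.15 in scramble. Among them Pi16 was called (1.14, adjusted p = 0.126), Hic1 was lowest (-0.07), and Pdgfra, a defining fibroblast marker, differed by 0.18 (adjusted p = 0.766). Smooth muscle markers were higher for 4 of 7 genes, from -0.15 for Tagln to 0.25 for Myh11, with a median of 0.04, mean signals of 8.60 and 8.56 and 0 called. Endothelial markers were higher for 7 of 7 genes, with a median of 0.37, means of 10.89 and 10.45 and 0 called, from Pecam1 (0.22) to Kdr (0.75, adjusted p = 0.19). Macrophage markers were higher for 8 of 8 genes, from Mrc1 (0.37) to Cd68 (2.53, adjusted p = 0.0182), with a median of 0.825, means of 8.46 and 7.37 and 3 called.

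Tendon markers were higher for 5 of 6 genes, with a median of 1.085, means of 9.26 and 8.31 and 2 called, and their spread was wide, with a median SD of 1.17 in MYTHO-KD and 0.835 in scramble. They ran from Mkx at -0.04 to Thbs4 at 1.90 (adjusted p = 0.263). Adipocyte markers were lower for 4 of 4 genes with 0 called, from Adipoq (-0.69, adjusted p = 0.869) to Plin1 (-0.26), with means of 6.46 and 6.85. Muscle fibre markers were higher for 2 genes and lower for 3, from Pvalb (-0.15) to Myh1 (0.59, adjusted p = 0.23), and the other 3 were those at the top of the scale with an SD of 0, where no difference could be measured. Mylpf (19.64 in MYTHO-KD and 19.59 in scramble), Tnnt3 (19.7 and 19.73) and Pvalb (19.17 and 19.32) stood near that top, so little room was left to measure a rise. Each gene of the 7 marker lists was flagged as expressed in both groups, a flag that 95.6% of all probe sets carried, and the signals of Myocd (smooth muscle, 5.12 and 5.08) and Mkx (tendon, 5.43 and 5.47) were dim. The part of these cell types in the differences of Loxl1, Loxl2 and Fbn1 was not tested.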

How the data were processed

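RNA of 8 gastrocnemius muscles, 4 per group, was isolated with Trizol and hybridised to Clariom S Mouse arrays. The study's methods name SST-RMA in the Transcriptome Analysis Console, and the submitters' processing notes name Affymetrix Expression Console, RMA and mm10. The deposited table has 28 columns: annotation, the authors' log2 average and SD per group, expression flags, and the authors' own fold changes, p-values and false discovery rates, which were not used. The kind of average is not stated, and the single-array signals were not analysed here, so depth has no counterpart and the number of arrays limits the precision.

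From the averages and SDs, limma 3.58.1 in R 4.3.3 gave a moderated two-sided test per probe set: the pooled variance (6 residual df) was moderated with squeezeVar (prior SD 0.284, prior df 5.85), and p-values were adjusted by Benjamini-Hochberg over 22206 probe sets. A log2 fold change is MYTHO-KD minus scramble, and 95% intervals use the moderated SE. The script was tested on simulated data. The 10 genes, the 7 lists of partner genes and the 7 marker lists were chosen with earlier results of these data known. Named were all 10 genes, and from each list the genes called at 2-fold with an unadjusted p under 0.05, or otherwise the highest and the lowest. Of the marker lists the highest and lowest are named. Postn, Bmp1, Atp7a, Emilin3, Ltbp2, Myocd, Pdgfra, Ly6a, Cd34, the muscle fibre genes at or near the top of the scale and neighbouring probe sets were named after their values were seen. Figures were drawn with matplotlib 3.10.9 in Python 3.11.15. Alternatives were no moderation, a variance prior with a trend, unequal variances, filters on dim or unexpressed probe sets, centring and other thresholds.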

Additional observations from a re-analysis of the deposited data

How the results depend on the processing

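Each of the 6 alternative settings of the test used the same group averages, and centring shifted the differences only by their median (-0.01). The direction of a difference was therefore not put to a test. Over these settings, 57 of 59 values of the 10 genes kept their side of an unadjusted p of 0.05. Both exceptions were Fbn1, which had a p of 0.0542 without moderation and also with unequal variances. The number of genes called at 2-fold was then 2 instead of 3. It was 3 under the other settings and also at 1.5-fold, and 0 when an adjusted p under 0.05 was asked for. The p ranged from 0.000516 to 0.0136 for Loxl1 and from 0.00104 to 0.016 for Loxl2, and the lowest adjusted p of any of the 10 genes was 0.0553, for Loxl1. Leaving out dim probe sets (a mean of both averages under 5.715) dropped 1 gene, Emilin1. Of the partner genes 7 were called, and 6 after either filter, which removed Timp1. No paired analysis was possible because the table analysed gives group averages and no single arrays, and leaving out each array in turn could not be run for the same reason. Other probe sets of a gene were not tried, as 0 genes had more than 1. If the averages are robust ones, such as Tukey biweight averages, the p-values would be too low, and this could not be settled from averages and SDs.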

Other observations

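The SD between arrays was larger in MYTHO-KD than in scramble for 6 of the 10 genes, where 48.1% of all probe sets had the larger SD in MYTHO-KD. The SDs of Fbn1 (0.60 in MYTHO-KD and 0.62 in scramble) lay at the 95.4th and 97.1th percentiles of all probe sets, and those of Lox at the 99.2th and 98.8th. That of Eln was 0.13 in MYTHO-KD, at the 13.1th percentile, and 0.36 in scramble, at the 71.8th.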
